A study of Arabidopsis thaliana with 32 samples.

Results

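Sugar starvation and dark-inducible genes were followed here through 7 Arabidopsis thaliana genes, taken from 37336 genes counted by 3′RNA-seq. They are ASN1 (AT3G47340), DIN10 (AT5G20250), SEN1 (AT4G35770), BT2 (AT3G48360), AKINBETA1 (AT5G21170), KMD4 (AT3G59940) and GDH2 (AT5G07440). They were chosen with their levels in these libraries known, so their levels and fold changes are a description and carry no test. Calls among the 7 are counted as part of that description. Tests are given only for other genes, in lists that hold none of the 7. The lists too were chosen with earlier results of these data known, so their p-values are not independent of that choice.

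Leaves make sugar in the light and draw on stored starch at night. When sugar runs short, plant cells activate the kinase SnRK1, which with a set of bZIP transcription factors switches on genes for the release of carbon from amino acids, lipids and cell walls. Asparagine, rich in nitrogen for its carbon, then becomes a main form in which nitrogen is kept. Many such genes were first found as dark-inducible (DIN) or senescence-associated genes, because darkness and ageing of leaves raise their transcripts and feeding of sugar lowers them.

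The 32 libraries fall into 8 groups of 4, made of 2 tissues, 2 genotypes and 2 sulfur supplies. The mutant is q-lsu-KO, 1 transgenic line in the Col-0 background with deletions in all 4 LSU (RESPONSE TO LOW SULFUR) genes, and the wild type (WT) is Col-0. All seedlings grew in vitro for 10 days on normal sulfur medium with 1 mM sulfate [nS], followed by 5 days on medium in which magnesium chloride stood in for magnesium sulfate [dS] or on fresh [nS] medium. The day had 8 h of light and the night lasted 16 h, and shoots and roots of 15-day-old plants were extracted separately, from at least 10 seedlings. The hour of harvest is not given in the sources used here.

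Library totals ran from 893225 to 2857129 counts. The libraries were sequenced in 4 pools, and each pool held both genotypes of 1 tissue and 1 sulfur supply, so genotypes are compared within a pool, whereas sulfur supply and tissue cannot be told apart from the pool. LSU2 was counted 2 to 25 times in q-lsu-KO libraries and 192 to 1202 times in WT libraries. The other 3 LSU genes had more tags in the mutant: in [nS] shoots, q-lsu-KO had LSU1 6.71-fold, LSU3 4.87-fold and LSU4 5.9-fold higher, and LSU4 was 8.75-fold higher in [dS] shoots, all 4 called. These 3 genes show no loss of transcript. Where their tags lie relative to the deletions is not given in the sources used here, so LSU2 alone checks the labels. Of the summed markers of shoots, shoot libraries held 41400 to 60900 CPM (counts scaled to a common library size) and root libraries 52.2 to 227 CPM, and of the summed root markers, shoot libraries held 451 to 773 CPM and root libraries 3960 to 5840 CPM.

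Some shoot libraries stood nearer to the other genotype than the rest of their group. WT [nS] library 4 was the highest of its group for ASN1, DIN10, BT2, AKINBETA1 and KMD4, and q-lsu-KO [dS] library 1 was the lowest of its group for ASN1, DIN10, SEN1 and BT2. Within q-lsu-KO [nS], library 1 had the least ASN1, DIN10, BT2, KMD4 and GDH2. Values without WT [nS] library 4 and both q-lsu-KO libraries 1 are given beside the results. The 3 were picked after the levels of these same genes were seen, as the nearest to the other genotype, so larger fold changes without them follow from that choice. The libraries of a group are described as biological replicates, with no statement on separate plates or days, so the p-values rest on the spread among these libraries, which may be technical. Each library comes from a whole organ, so more cells that express a gene and more RNA per cell cannot be told apart.

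The stretches before the genes are shown first, because the 7 genes are described together. In the RefSeq annotation of TAIR10.1, ASN1 lies on the minus strand of chromosome 3 (17437840 to 17441431), BT2 on the minus strand of chromosome 3 (17907767 to 17910738) and AKINBETA1 on the plus strand of chromosome 5 (7205477 to 7208613). The plus strand holds DIN10 (chromosome 5, 6833564 to 6836862), SEN1 (chromosome 4, 16944878 to 16946266), KMD4 (chromosome 3, 22142856 to 22144439) and GDH2 (chromosome 5, 2355759 to 2358241). Printed 5′ to 3′ on the strand of the gene are the 300 bases that end just before the annotated start of ASN1 (chr3:17441432-17441731), BT2 (chr3:17910739-17911038) and AKINBETA1 (chr5:7205177-7205476), the 3 genes with a TATCCA element, an element known from sugar-repressed alpha-amylase genes of rice. Capitals mark exact matches, on either strand, to the G-box (CACGTG), the bZIP-bound motif ACTCAT, the element TATCCA, the I-box (GATAAG) and the evening element (AAATATCT).
ASN1: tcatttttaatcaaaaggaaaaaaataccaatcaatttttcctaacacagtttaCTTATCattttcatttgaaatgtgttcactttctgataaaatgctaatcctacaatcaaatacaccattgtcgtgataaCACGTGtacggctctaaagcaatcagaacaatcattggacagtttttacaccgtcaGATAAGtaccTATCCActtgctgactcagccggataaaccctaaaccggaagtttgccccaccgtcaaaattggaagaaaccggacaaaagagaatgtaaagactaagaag
BT2: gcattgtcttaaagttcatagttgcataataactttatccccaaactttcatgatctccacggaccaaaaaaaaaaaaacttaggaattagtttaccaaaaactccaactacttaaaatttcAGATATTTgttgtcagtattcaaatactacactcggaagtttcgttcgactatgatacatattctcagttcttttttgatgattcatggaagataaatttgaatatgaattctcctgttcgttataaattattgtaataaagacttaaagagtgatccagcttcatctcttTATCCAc
AKINBETA1: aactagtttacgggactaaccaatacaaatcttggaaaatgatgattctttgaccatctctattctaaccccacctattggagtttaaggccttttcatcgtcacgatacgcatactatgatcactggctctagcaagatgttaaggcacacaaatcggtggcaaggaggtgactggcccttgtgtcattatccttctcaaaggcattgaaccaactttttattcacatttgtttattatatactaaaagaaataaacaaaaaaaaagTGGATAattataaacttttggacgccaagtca

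TATCCA started 101 bases before ASN1, 7 before BT2 and 32 before AKINBETA1, and 16.2% of the 27443 windows of protein-coding genes on nuclear chromosomes hold it. The ASN1 window had the G-box found in 7.09% of windows, 167 bases before the start, and 2 of the I-boxes found in 14.5% of windows. SEN1 also had 2 I-boxes, 96 and 35 bases before its start. The evening element, held by 5.64% of windows, was in the windows of BT2 (178 bases before the start) and KMD4 (81 bases before it). ACTCAT, held by 14.8% of windows, was in none of the 7, and DIN10 and GDH2 had none of the 5 motifs. No 2 matches overlapped. These matches describe the letters only.

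Over the 8 groups, shoots of q-lsu-KO had higher means of all 7 transcripts than shoots of WT, in both sulfur supplies. Roots of the genotypes lay closer together for most of the genes. Levels are given in CPM, scaled over all 32 libraries with TMM (trimmed mean of M-values) factors, for libraries 1 to 4 of each group. Fold changes are log2 values ± SE from edgeR fitted on the 16 libraries of a tissue, and a gene is called when its Benjamini-Hochberg adjusted p is under 0.05 and its fold change over 1.5. Levels are not compared between genes, since a 3′ tag carries no length scale.

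**Figure D1:**
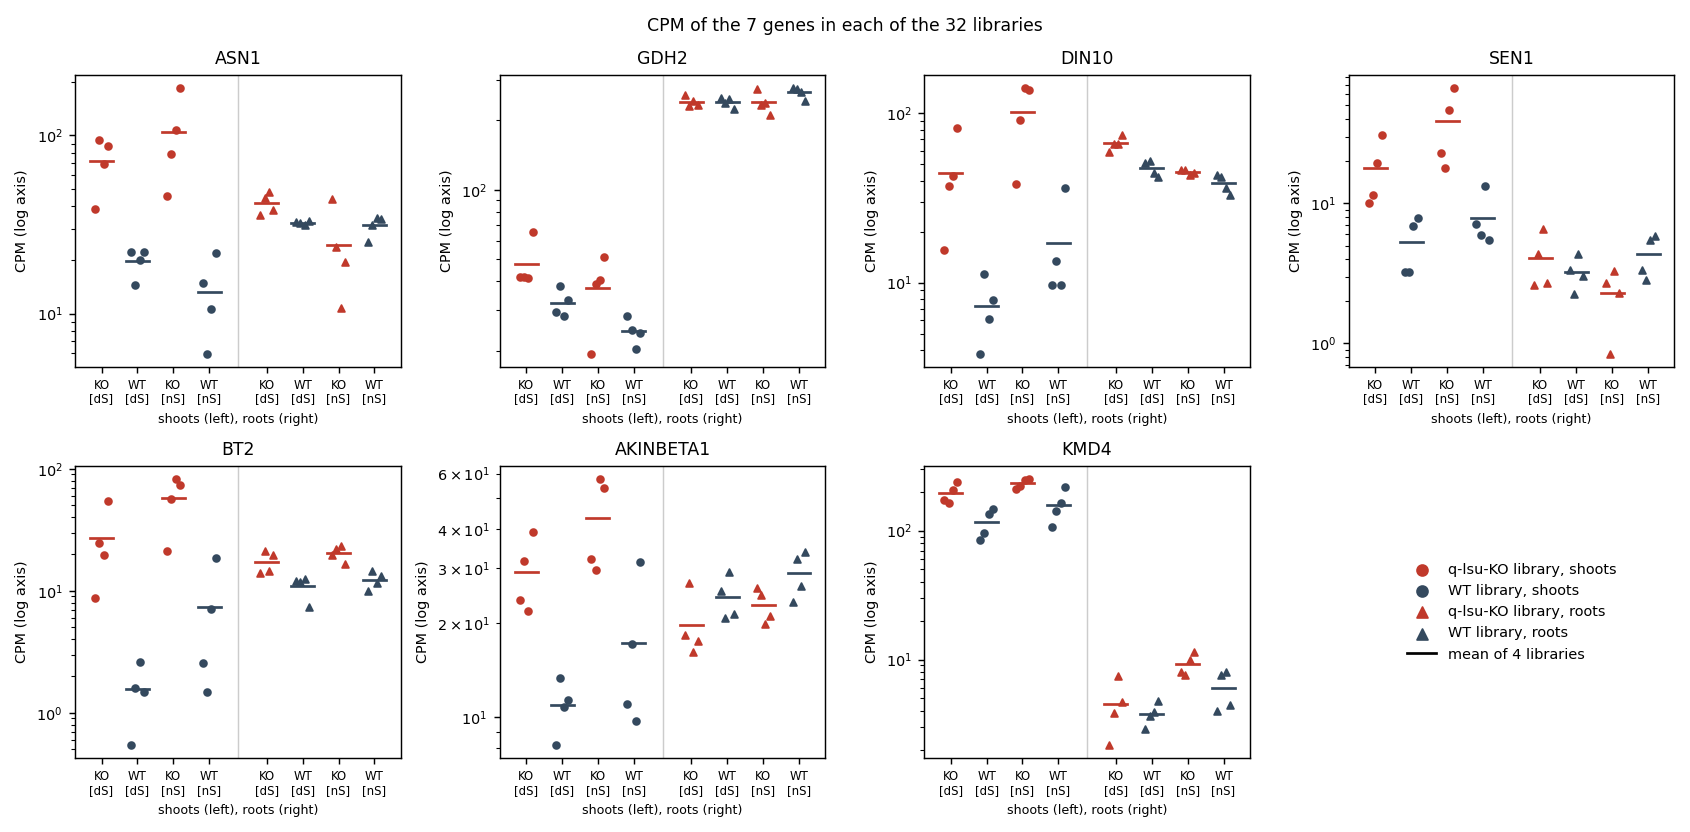
CPM (log axis) of the 7 genes in each of the 32 libraries, shoots left and roots right, in the order q-lsu-KO [dS], WT [dS], q-lsu-KO [nS], WT [nS]. Points are libraries and bars are means of 4. In shoots every q-lsu-KO library lies above every WT library for 7 of 7 genes under [dS] and 4 of 7 under [nS]. This holds for 5.97% and 6.94% of tested genes, and the 7 were chosen with these levels known. Under [dS], BT2 has 8.79 to 54.4 CPM in q-lsu-KO and 0.544 to 2.6 CPM in WT.

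ASN1 and GDH2 act where nitrogen and carbon metabolism meet. ASN1 encodes a glutamine-dependent asparagine synthetase, whose transcript is a classic marker of dark and low-sugar conditions. In shoots under [dS], ASN1 had 38.5, 94.2, 68.9 and 86.7 CPM in q-lsu-KO libraries, against 22.3, 14.4, 20 and 22.3 CPM in WT libraries. In shoots under [nS], ASN1 had 45.6, 78.2, 107 and 185 CPM in q-lsu-KO, against 14.8, 5.96, 10.6 and 21.8 CPM in WT. The 2 genotypes did not overlap in either supply. Means were 72.1 ± 24.8 CPM in q-lsu-KO and 19.7 ± 3.7 CPM in WT under [dS], and 104 ± 59.8 CPM in q-lsu-KO and 13.3 ± 6.71 CPM in WT under [nS] (SD, n = 4 each). The log2 fold change was 1.89 ± 0.44 under [dS] and 2.91 ± 0.50 under [nS]. Without the 3 libraries named above, it was 2.11 under [dS] and 3.52 under [nS].

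ASN1 in roots behaved otherwise. Under [dS], q-lsu-KO roots had 35.7, 44.8, 48 and 38.4 CPM, and WT roots 32.6, 32.1, 31.3 and 33.1 CPM. Under [nS], q-lsu-KO roots had 43.8, 23.6, 10.8 and 19.4 CPM, and WT roots 25.4, 31.5, 34.5 and 33.8 CPM. The q-lsu-KO libraries thus lay just above WT under [dS] (0.39 ± 0.17 on the log2 scale). Under [nS] library 1 of q-lsu-KO lay above all WT libraries and the rest lay below them all (-0.39 ± 0.22).

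GDH2, a subunit of the mitochondrial glutamate dehydrogenase that releases ammonium and a carbon skeleton from glutamate, differed little between the genotypes. Under [dS], shoots of q-lsu-KO had 41.9, 41.6, 41.4 and 65.4 CPM, against 29.4, 38, 28.2 and 33.2 CPM in WT, with no overlap. Under [nS], shoots of q-lsu-KO had 19.4, 39.1, 40.7 and 50.9 CPM, against 28.4, 24.6, 20.3 and 23.8 CPM in WT. There q-lsu-KO library 1 lay below all 4 WT libraries. The log2 fold changes were 0.58 ± 0.18 under [dS] and 0.60 ± 0.22 under [nS], near the fold threshold in both supplies, and without the 3 libraries named above they were 0.63 and 0.81. In roots GDH2 stood at 211 to 277 CPM in every library, and its root fold changes were 0.02 ± 0.07 under [dS] and -0.13 ± 0.08 under [nS].

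Among genes of sugar use, DIN10 encodes a protein of the raffinose synthase family. Under [dS], DIN10 had 15.6, 37.1, 42.5 and 81.6 CPM in q-lsu-KO shoots, against 3.81, 11.2, 6.07 and 7.92 CPM in WT shoots. With normal sulfur [nS], it had 38, 90.9, 141 and 136 CPM in q-lsu-KO shoots, against 9.67, 13.4, 9.72 and 36 CPM in WT shoots. All q-lsu-KO libraries lay above all WT libraries, but under [nS] the lowest q-lsu-KO value and the highest WT value, 38 and 36 CPM, nearly met. Means were 44.2 ± 27.5 CPM in q-lsu-KO and 7.26 ± 3.14 CPM in WT under [dS], and 101 ± 47.7 CPM in q-lsu-KO and 17.2 ± 12.7 CPM in WT under [nS] (SD, n = 4 each). The log2 fold change was 2.58 ± 0.68 under [dS] and 2.52 ± 0.57 under [nS], and without the 3 libraries named above it was 2.88 and 3.49.

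SEN1, also known as DIN1, is a senescence-associated gene for a protein with a sulfurtransferase (rhodanese) domain. In shoots under [dS], SEN1 had 10.1, 11.5, 19.5 and 30.9 CPM in q-lsu-KO, against 3.26, 3.21, 6.94 and 7.92 CPM in WT. In shoots under [nS], it had 22.8, 18, 46.1 and 66.8 CPM in q-lsu-KO, against 7.09, 5.96, 13.2 and 5.44 CPM in WT. The genotypes did not overlap in either supply, with log2 fold changes of 1.65 ± 0.57 under [dS] and 2.31 ± 0.52 under [nS], and 1.85 and 2.36 without the 3 libraries named above. In roots it was counted 1 to 17 times a library (0.844 to 6.55 CPM) and did not pass the filter on low counts, so 6 of the 7 genes were fitted there.

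The remaining genes encode regulators. BT2, a BTB and TAZ domain scaffold protein that responds to sugar, nitrogen and the clock, had the highest fold changes of the 7 in shoots. Under [dS], BT2 had 8.79, 24.6, 19.5 and 54.4 CPM in q-lsu-KO shoots, against 0.544, 1.6, 2.6 and 1.48 CPM in WT shoots, where it was counted only 1 to 6 times a library. In [nS] shoots it had 21.1, 56, 82.2 and 73.1 CPM in q-lsu-KO, against 2.58, 1.49, 7.07 and 18.4 CPM in WT. There was no overlap in either supply. The log2 fold changes were 4.00 ± 0.92 under [dS] and 2.95 ± 0.67 under [nS], and without the 3 libraries named above they were 4.30 and 4.32.

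BT2 was also higher in q-lsu-KO roots. Under [dS] it had 13.9, 21.3, 14.4 and 19.5 CPM in q-lsu-KO roots, against 12, 11.8, 12.6 and 7.4 CPM in WT roots. Under [nS] it had 19.7, 22, 23.2 and 16.5 CPM in q-lsu-KO roots, against 10, 14.6, 11.5 and 13.2 CPM in WT roots. No libraries of the 2 genotypes overlapped, but neither fold change (0.64 ± 0.20 and 0.73 ± 0.21) met the criteria of a call.

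AKINBETA1 encodes a beta subunit of the SnRK1 complex itself. Under [dS], shoots of q-lsu-KO had 23.7, 31.6, 21.8 and 39 CPM, against 8.16, 13.4, 10.8 and 11.4 CPM in WT. Under [nS], shoots of q-lsu-KO had 32.1, 29.6, 57.6 and 54 CPM, against 11, 17.1, 9.72 and 31.3 CPM in WT. Only WT [nS] library 4 reached into the q-lsu-KO range. The log2 fold changes in shoots were 1.44 ± 0.34 and 1.31 ± 0.32, and without the 3 libraries named above they were 1.53 and 1.91. Roots had 16.2 to 33.8 CPM, with fold changes below 0 in both supplies (-0.29 ± 0.17 under [dS] and -0.30 ± 0.18 under [nS]).

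KMD4 belongs to the KISS ME DEADLY family of Kelch F-box proteins, which mark type-B response regulators of cytokinin signalling for degradation. Under [dS], shoots of q-lsu-KO had 172, 164, 207 and 238 CPM, against 84.9, 96.3, 135 and 147 CPM in WT. Under [nS], shoots of q-lsu-KO had 212, 223, 248 and 251 CPM, against 106, 143, 165 and 220 CPM in WT. The genotypes did not overlap under [dS], whereas WT [nS] library 4 reached into the q-lsu-KO range, with log2 fold changes of 0.75 ± 0.23 under [dS] and 0.56 ± 0.23 under [nS], and 0.80 and 0.81 without the 3 libraries named above. In roots KMD4 stood at 2.17 to 11.4 CPM.

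**Figure D2:**
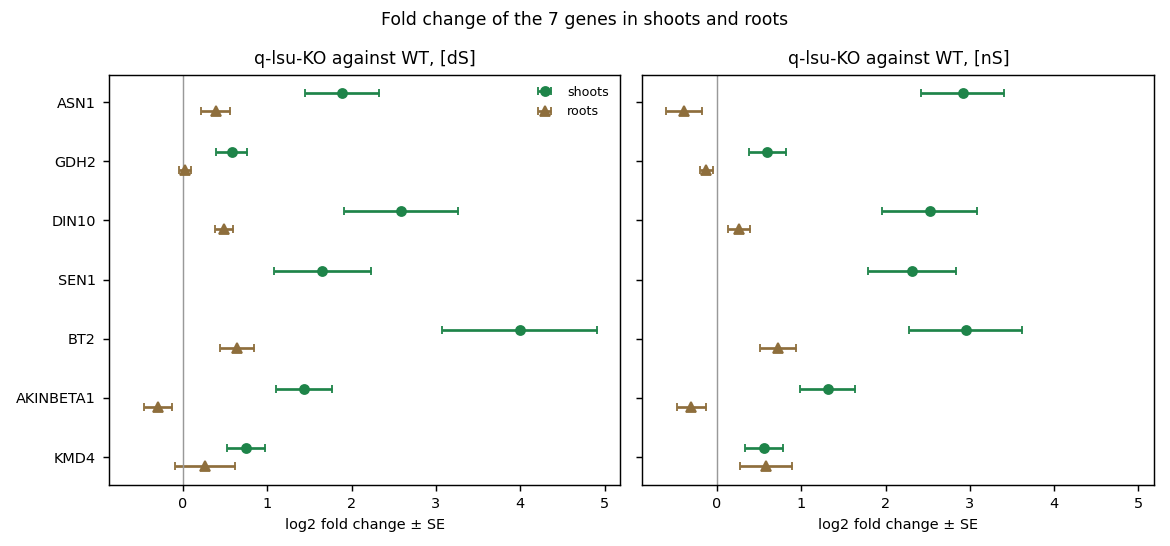
Log2 fold changes of the 7 genes, q-lsu-KO against WT, in shoots (circles) and roots (triangles), under [dS] (left) and [nS] (right). Symbols are fitted values and bars are ± SE. All 14 shoot values lie above 0, between 0.56 and 4.00, and the root values lie between -0.39 and 0.73.

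Under [dS], 4 of the 7 (ASN1, DIN10, BT2 and AKINBETA1) met the criteria of a call in shoots, where 3.53% of the 14593 tested genes were called higher and 0.637% lower in q-lsu-KO. Under [nS], 5 of the 7 did so, SEN1 in addition, with 3.36% of genes called higher and 1.47% lower. The median log2 fold change of the 7 was 1.65 under [dS] and 2.31 under [nS], beside -0.024 and -0.008 over all tested genes. All q-lsu-KO libraries lay above all WT libraries for 7 of 7 under [dS] and 4 of 7 under [nS], as for 5.97% and 6.94% of tested genes. As the genes were chosen on these libraries, nothing is read from those counts. The same holds for the counts among the 7 given below for sulfur supply, roots and the difference between tissues. Left out in turn, WT [dS] library 1 or q-lsu-KO [dS] library 4 took the count under [dS] to 0, WT [dS] library 3 or q-lsu-KO [dS] library 2 took it to 1, and WT [dS] library 2 or q-lsu-KO [dS] library 3 took it to 2. Under [nS], the count was 1 without WT library 1, WT library 2 or q-lsu-KO library 3, 2 without q-lsu-KO library 4 and 3 without WT library 3, and with only the 8 libraries compared it was also 1. The direction of every shoot fold change was the same in all 16 alternatives run for it.

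Sulfur supply separated these genes less. In shoots, [dS] libraries set against [nS] libraries of the same genotype gave log2 fold changes of -1.23 to 0.35 in q-lsu-KO and -2.16 to 0.52 in WT. Of the 7, 0 were called in either genotype, in a comparison where 12.1% of genes in q-lsu-KO and 11.4% in WT were called in either direction. In q-lsu-KO shoots the values were below 0 for 6 of the 7, among them DIN10 (-1.23 ± 0.49), SEN1 (-1.16 ± 0.45) and BT2 (-1.12 ± 0.53), with overlapping libraries in each case. Without q-lsu-KO [dS] library 4, 3 of the 7 were called lower, and without q-lsu-KO [nS] library 1 or 2, 1 was. DESeq2 called 1 lower in each genotype. The difference of the genotype fold change between the supplies ran from -1.03 ± 0.70 for ASN1 to 1.05 ± 1.35 for BT2, with 0 of 7 called and 0.425% of genes called.

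In roots, log2 fold changes between the genotypes ran from -0.39 to 0.73. All q-lsu-KO libraries lay above all WT libraries for 3 genes under [dS] (ASN1, DIN10 and BT2), as for 2% of tested genes. Under [nS] this held for 1 gene (BT2), as for 1.45% of tested genes. Of the 6 genes fitted, 0 were called between q-lsu-KO and WT in either supply, where 0.157% of 15971 genes were called under [dS] and 0.163% under [nS]. Without q-lsu-KO [nS] root library 1, 1 was called lower under [nS]. The median log2 fold change of the 6 was 0.32 under [dS] and 0.07 under [nS]. DIN10 had 59.2, 65.6, 65.9 and 74.8 CPM in q-lsu-KO [dS] roots, against 50.8, 52.5, 44.3 and 41.8 CPM in WT [dS] roots, without overlap but under the fold threshold (0.49 ± 0.11). Between supplies, 2 of the 6 were called in q-lsu-KO roots, ASN1 higher under [dS] (0.84 ± 0.21) and KMD4 lower (-1.03 ± 0.33), and 0 of 6 in WT roots, where 6.15% of genes in q-lsu-KO and 6.82% in WT were called. The ASN1 libraries overlapped, at 35.7 to 48 CPM under [dS] and 10.8 to 43.8 CPM under [nS], and its call was lost with only the 8 libraries compared. The KMD4 call was lost with DESeq2 and without q-lsu-KO [dS] root library 1 or 2 or q-lsu-KO [nS] root library 3 or 4. The difference of the genotype fold change between the supplies was called for 0 of 6, with 0.025% of genes called.

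Set side by side, the tissues differed most for KMD4. KMD4 means were 43 times as high in shoots as in roots for q-lsu-KO [dS], 30.5 times for WT [dS], 25.3 times for q-lsu-KO [nS] and 26.5 times for WT [nS]. GDH2 went the other way, with root means 5.08 times the shoot mean for q-lsu-KO [dS], 7.48 times for WT [dS], 6.37 times for q-lsu-KO [nS] and 10.9 times for WT [nS]. For ASN1 the order turned with the genotype. Shoot over root means were 4.26 in q-lsu-KO [nS], and root over shoot means 2.36 in WT [nS], without overlap in either genotype. Under [dS] the shoot over root mean was 1.73 in q-lsu-KO, where the tissues overlapped. The root over shoot mean in WT [dS] was 1.64, without overlap. SEN1 was 16.9 times as high in shoots as in roots of q-lsu-KO [nS], and 1.82 times in WT [nS], where the tissues overlapped.

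Ranked by mean, the 8 groups had q-lsu-KO [nS] shoots on top for 6 of the 7 genes, the exception being GDH2, whose 4 root groups (239 to 265 CPM) stood above all shoot groups. Shoots of WT were at the bottom, in 1 supply or the other, for ASN1, DIN10, BT2, AKINBETA1 and GDH2. Most neighbours in that order overlapped. The libraries separated only at ASN1 and DIN10 between q-lsu-KO [dS] and WT [dS] roots, at KMD4 between WT [dS] shoots and q-lsu-KO [nS] roots, and at GDH2 between q-lsu-KO [dS] shoots and q-lsu-KO [nS] roots. The order of tissues rests in part on the scaling. From library totals alone, DIN10 averaged 76.8 CPM in q-lsu-KO [nS] shoots and was highest in q-lsu-KO [dS] roots (87.2 CPM), AKINBETA1 averaged 32.9 CPM in q-lsu-KO [nS] shoots and was highest in WT [nS] roots (36.4 CPM), and in q-lsu-KO [dS] both BT2 and AKINBETA1 had lower means in shoots than in roots.

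The genotype fold change in shoots less that in roots, fitted on all 32 libraries, was above 0 for all 7 genes in both supplies. For KMD4 it lay within 1 SE of 0 under [dS] and close to 0 under [nS]. Under [dS] the difference ran from 0.51 ± 0.61 for KMD4 to 3.39 ± 0.90 for BT2. Under [nS] it ran from 0.01 for KMD4 to 3.31 ± 0.59 for ASN1. No SE is given for that KMD4 value, since the SE used here, the fold change over the square root of F, is unreliable near 0. The KMD4 value under [nS] was above 0 in 3 of 5 alternatives (-0.05 to 0.06). Of the 7, 1 (AKINBETA1) was called under [dS] and 5 under [nS], with 1.73% and 1.89% of 17918 genes called. Under [dS] the count was 3 with DESeq2 and 2 with a mean CPM of at least 5.

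Within groups, libraries that were high for 1 of the 7 genes tended to be high for the others in shoots. The correlation of log2 CPM after removal of group means was above 0 for 21 of 21 gene pairs over the 16 shoot libraries, with a median of 0.52 and a highest value of 0.84 for DIN10 and BT2. In roots it was above 0 for 10 of 15 pairs, with a median of 0.06. Each group lay within 1 pool, so these values describe differences among libraries of the same pool. Their source was not tested. The 7 were chosen as a set with these libraries known and no value for other gene pairs is given, so nothing is read from the counts of pairs.

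Scored as 1 set, by the mean of each gene's log2 CPM centred on the 16 libraries of a tissue, the 7 genes ran from -0.08 to 1.24 in q-lsu-KO [dS] shoots and from -1.40 to -0.85 in WT [dS] shoots. The same score was 0.41 to 1.74 in q-lsu-KO [nS] shoots and -1.03 to -0.00 in WT [nS] shoots. The lowest q-lsu-KO library under [dS] was library 1 and the highest WT library under [nS] was library 4, the libraries named at the start.

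Touch and early stress genes, which respond within minutes to handling and wounding, moved with the genotype in the same shoots. The summed levels of the 14 were 2287 to 3377 CPM in q-lsu-KO [dS] shoots and 239.9 to 1664 CPM in WT [dS] shoots, and 2020 to 2384 CPM in q-lsu-KO [nS] shoots and 158.6 to 1022 CPM in WT [nS] shoots. Of 13 tested, 7 rose in q-lsu-KO under [dS] and 5 under [nS], among them WRKY53 (2.52 ± 0.27 and 2.87 ± 0.42, adjusted p = 4.25e-06 and 0.000132). With 1 library left out, 1 to 10 were called under [dS], the 1 being without q-lsu-KO library 4, and 2 to 6 under [nS], the 2 being without WT library 2. In roots they summed to 495.9 to 685.8 CPM, with 0 of 13 called in either supply (1 under [dS] and 0 under [nS] at an unadjusted p under 0.05, 0 and 0 by DESeq2). Clock genes moved as well: TOC1, an evening gene, rose under [dS] (0.71 ± 0.18, adjusted p = 0.0118) and [nS] (1.08 ± 0.27, adjusted p = 0.00768), while the morning gene CCA1 (-0.59 ± 0.15, adjusted p = 0.00826) and RVE8 (-0.84 ± 0.26, adjusted p = 0.0409) fell under [nS]. Of 9 clock genes tested, 8 under [dS] and 6 under [nS] were not called. The part of the touch and clock genes in the results was not tested.

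**Figure D3:**
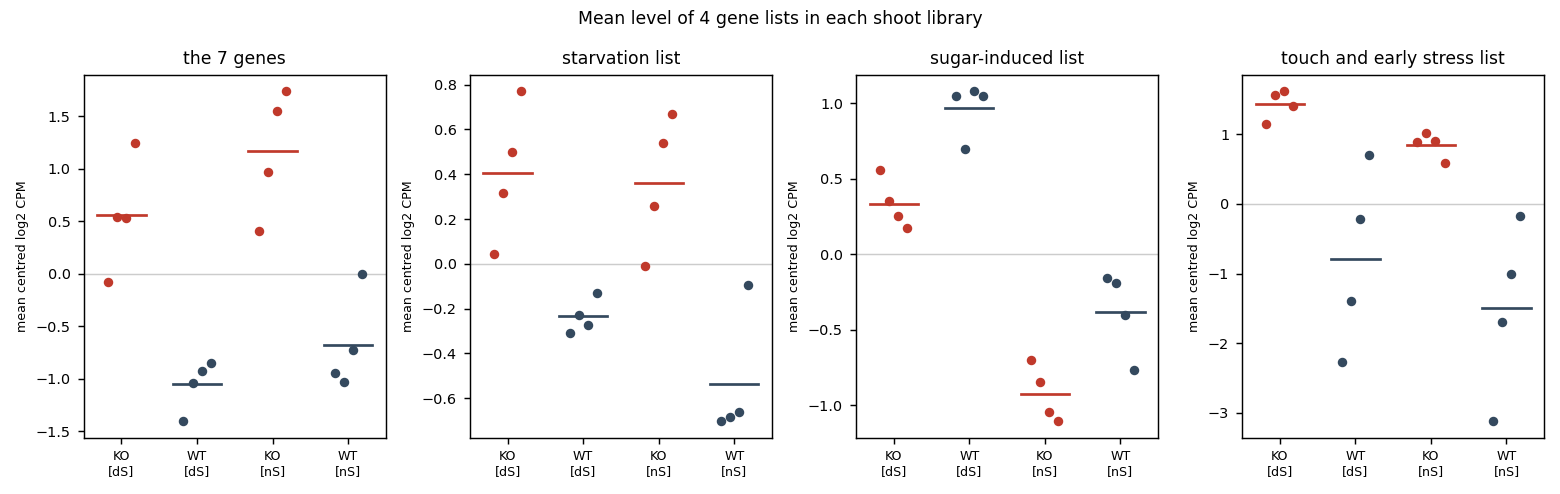
Mean centred log2 CPM of 4 gene lists in each of the 16 shoot libraries, in the order q-lsu-KO [dS], WT [dS], q-lsu-KO [nS], WT [nS]. Points are libraries and bars are means of 4. The 7 genes and the touch list are both higher in q-lsu-KO shoots than in WT shoots, with touch scores of 1.15 to 1.62 and -2.27 to 0.70 under [dS].

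Beyond the 7, a list of 23 other carbon starvation and dark-inducible genes was read in the same comparisons. In shoots 17 of them were tested. Under [dS], 3 rose in q-lsu-KO, 0 fell and 14 were not called, with a median log2 fold change of 0.45. Under [nS], 6 rose, 1 fell and 10 were not called, with a median of 0.60. At an unadjusted p under 0.05 stood 8 under [dS] and 10 under [nS], and DESeq2 called 4 and 6.

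Both dormancy-associated genes rose under [nS]. DRM2 had 56.8, 134, 136 and 223 CPM in q-lsu-KO [dS] shoots, against 22.8, 46, 41.6 and 37.6 CPM in WT [dS] shoots, and rose by 1.89 ± 0.50 (adjusted p = 0.0447). Under [nS] it had 76.9, 141, 238 and 259 CPM in q-lsu-KO shoots, against 15.5, 14.2, 18.5 and 53 CPM in WT shoots, and rose by 2.79 ± 0.55 (adjusted p = 0.00842). No libraries overlapped in either supply. DRM1 rose under [nS] by 2.12 ± 0.43 (adjusted p = 0.00987), with 78.6 to 182 CPM in q-lsu-KO and 13.5 to 51.7 CPM in WT.

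EXL1, an EXORDIUM-like cell wall protein tied to growth at low carbon, had 32.1, 50.7, 50.7 and 97.5 CPM in q-lsu-KO [nS] shoots, against 5.16, 8.2, 7.07 and 16.3 CPM in WT [nS] shoots, and rose by 2.60 ± 0.51 (adjusted p = 0.00814). AT3G15450, a gene of a plant-specific family with no symbol in the annotation used here, rose by 2.78 ± 0.66 under [dS] (adjusted p = 0.0271) and by 2.63 ± 0.61 under [nS] (adjusted p = 0.022). It had 106 to 436 CPM in q-lsu-KO [dS] shoots and 19 to 56.4 CPM in WT [dS] shoots, while under [nS] it had 315 to 773 CPM in q-lsu-KO shoots, against 232 CPM in WT library 4 and 27.1 to 68.9 CPM in the other WT libraries. The hexose transporter gene STP1 (1.54 ± 0.40, adjusted p = 0.0381) and DIN4, a subunit of the branched-chain keto acid dehydrogenase (0.77 ± 0.23, adjusted p = 0.0325), rose under [nS], and the cell wall beta-galactosidase gene BGAL4 rose under [dS] (2.12 ± 0.47, adjusted p = 0.00392).

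1 gene of the list fell. PPDK, pyruvate orthophosphate dikinase, had 56.6, 53.9, 53 and 46.6 CPM in q-lsu-KO [nS] shoots, against 90.9, 85, 77.7 and 76.8 CPM in WT [nS] shoots, a tight and complete separation (-0.65 ± 0.12, adjusted p = 0.000405). Other genes of branched-chain amino acid and lysine breakdown (DIN3, MCCA, MCCB, IVD, ETFQO, D2HGDH and LKR/SDH) were not called in q-lsu-KO shoots under either supply.

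Single libraries set how many of the list passed. Leaving out 1 library in turn, the count of called genes was 1 to 4 under [dS] and 4 to 8 under [nS]. It was 1 without WT [dS] library 1, 2 or 3, or without q-lsu-KO [dS] library 3 or 4, and 4 without WT [nS] library 1 or 3, or without q-lsu-KO [nS] library 3 or 4. BGAL4 under [dS], and DRM1, DRM2, EXL1 and PPDK under [nS], stayed called in all 8 of these fits, while AT3G15450 stayed called in 3 of 8 in each supply, DRM2 in 1 of 8 under [dS], STP1 in 3 and DIN4 in 2 under [nS]. Without both WT libraries 1, whose touch scores were the lowest of their groups, 1 gene was called under [dS] and 4 under [nS]. Without WT [nS] library 4 and both q-lsu-KO libraries 1, chosen after seeing the data, 5 were called under [dS] and 8 under [nS].

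In roots, 19 of the 23 were tested and 0 were called between the genotypes in either supply, with 4 under [dS] and 3 under [nS] at an unadjusted p under 0.05. DESeq2 called 0 under [dS] and 1 under [nS]. DRM1 passed the adjusted p but not the fold threshold in roots (0.49 ± 0.09, adjusted p = 0.00189 under [dS], and 0.55 ± 0.11, adjusted p = 0.00275 under [nS]). The difference between the tissues passed the test for BGAL4 under [dS] (2.21 ± 0.53, adjusted p = 0.0183), and for AT3G15450 (2.74 ± 0.66, adjusted p = 0.0233) and DRM2 (2.16 ± 0.57, adjusted p = 0.0469) under [nS].

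Between sulfur supplies, 3 of the 17 genes were called in q-lsu-KO shoots and 2 in WT shoots, and DIN2 was by far the most changed. This beta-glucosidase gene, named here after its values were seen, had 277 to 378 CPM in q-lsu-KO [dS] shoots and 1.06 to 10.6 CPM in q-lsu-KO [nS] shoots, a rise of 6.32 ± 0.38 (adjusted p = 4.9e-08). In WT shoots it had 181 to 319 CPM under [dS] and 0.883 to 5.16 CPM under [nS], a rise of 6.55 ± 0.39 (adjusted p = 4.23e-08). It rose in roots too, by 2.77 in q-lsu-KO (adjusted p = 6.59e-07) and 2.12 in WT (adjusted p = 7.58e-07). Of the other genes tested in shoots, PPDK rose and EXL1 fell in q-lsu-KO, and BGAL4 fell in WT. Of 17 genes, 0 differed between the genotypes in their response to sulfur supply (2 at an unadjusted p under 0.05, 0 by DESeq2).

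Genes that sugar induces, among them GPT2 and starch enzyme genes, had fold changes below 0 in q-lsu-KO shoots for 5 of 5 tested under [dS] and for 4 of 5 under [nS]. Of these, 2 fell and 0 rose under [dS], and 1 fell and 0 rose under [nS], with median log2 fold changes of -0.53 and -0.42. GPT2, a glucose-6-phosphate/phosphate translocator of plastids, had 43.3, 28.1, 23 and 26.5 CPM in q-lsu-KO [dS] shoots, against 68.5, 48.7, 71.6 and 71.8 CPM in WT [dS] shoots (-1.08 ± 0.16, adjusted p = 2.48e-05). Under [nS], it had 7.6, 5.28, 3.07 and 2.12 CPM in q-lsu-KO shoots, against 12.9, 16.4, 13.2 and 9.52 CPM in WT shoots (-1.48 ± 0.36, adjusted p = 0.00691). Both comparisons were free of overlap, and the call under [nS] was lost only without q-lsu-KO library 3. In q-lsu-KO [nS] shoots GPT2 was counted only 2 to 9 times a library.

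APL3, a large subunit of the starch enzyme ADP-glucose pyrophosphorylase, had 52.1, 41.6, 42.5 and 36.8 CPM in q-lsu-KO [dS] shoots, against 74.5, 57.2, 71.6 and 72.7 CPM in WT [dS] shoots, and fell (adjusted p = 0.0138), a call kept in 5 of 8 fits with 1 library left out. TPS5, of the trehalose-phosphate synthase family, passed the adjusted p under [dS] but not the fold threshold (-0.44 ± 0.11, adjusted p = 0.00714). Between sulfur supplies, all 5 of the list rose in [dS] shoots against [nS] shoots, in q-lsu-KO (GPT2 2.71 ± 0.30, adjusted p = 6.45e-09) and in WT (GPT2 2.31 ± 0.20, adjusted p = 4.21e-12), and DESeq2 called 4 and 5. In q-lsu-KO, TPS5 kept its call in 4 of 8 fits with 1 library left out, APL4 in 5 and APL3 in 7, and without q-lsu-KO [nS] library 3 the count was 3. Scores of the list were 0.17 to 0.56 in q-lsu-KO [dS] shoots, 0.69 to 1.08 in WT [dS] shoots, -1.10 to -0.70 in q-lsu-KO [nS] shoots and -0.77 to -0.16 in WT [nS] shoots. Sulfur supply and sequencing pool cannot be told apart in that comparison. In roots 2 of the list were tested and 0 were called between genotypes (0 at an unadjusted p under 0.05, 0 by DESeq2).

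**Figure D4:**
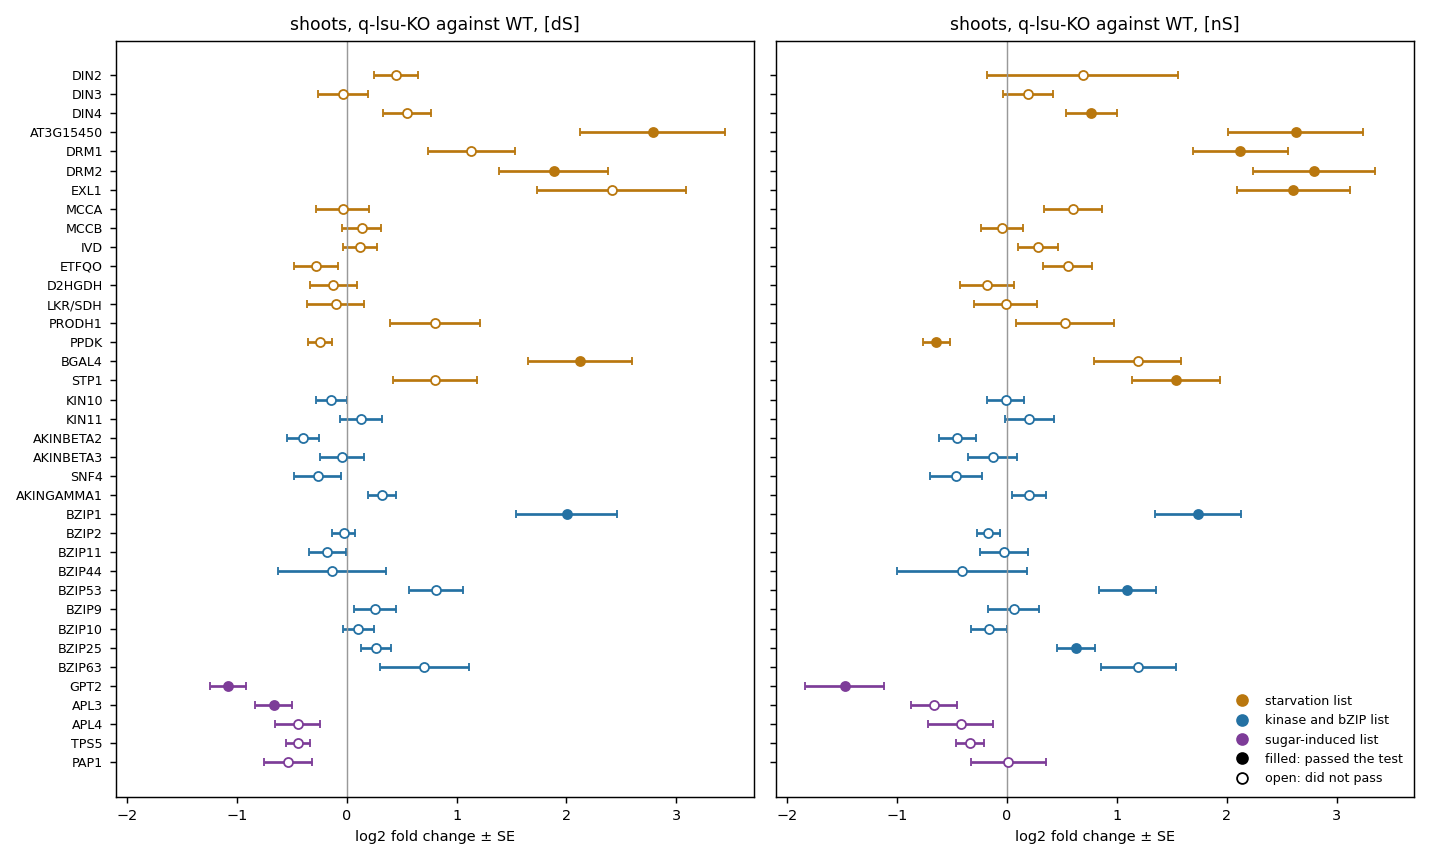
Log2 fold changes, q-lsu-KO against WT in shoots, of every tested gene in the carbon starvation, SnRK1 and bZIP, and sugar-induced lists, under [dS] (left) and [nS] (right). Filled points passed the adjusted p and fold thresholds and bars are ± SE. Called genes lie to the right of 0 apart from GPT2, APL3 and PPDK, and the kinase subunits lie between -0.46 and 0.33.

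Among the SnRK1 subunits and the bZIP factors that act with the kinase, 15 of 15 were tested. BZIP1 rose under [dS] (2.00 ± 0.46, adjusted p = 0.0226), the only call there. It had 20.3, 30.6, 47.1 and 47 CPM in q-lsu-KO [dS] shoots, against 5.44, 7.49, 8.24 and 13.4 CPM in WT [dS] shoots. Under [nS] 3 rose, BZIP1 (1.74 ± 0.39, adjusted p = 0.0183), BZIP53 (1.09 ± 0.26, adjusted p = 0.0237) and BZIP25 (0.63 ± 0.17, adjusted p = 0.0156). BZIP63, a target of the kinase, just missed (1.20 ± 0.34, adjusted p = 0.0504). The catalytic subunits KIN10 and KIN11 and the other subunits AKINBETA2, AKINBETA3, SNF4 and AKINGAMMA1 were not called. The list's median was 0.11 under [dS] and -0.01 under [nS]. With 1 library left out, 0 to 2 genes were called under [dS] and 0 to 4 under [nS], the 0 under [nS] being without WT library 2 or q-lsu-KO library 3 or 4, and under [dS] without WT library 1, 2 or 3 or q-lsu-KO library 3 or 4. Between the tissues, the genotype fold change differed for BZIP53 under [dS] (0.97, adjusted p = 0.0266) and [nS] (1.04, adjusted p = 0.0227) and for BZIP25 under [nS] (0.73, adjusted p = 0.0225).

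Close relatives of the 7 genes showed how far the pattern reached within each family. Of 20 relatives, 16 were tested in shoots, 2 of them (AKINBETA2 and AKINBETA3) also in the list above. In each supply 3 rose, 0 fell and 13 were not called, with medians of 0.33 under [dS] and 0.48 under [nS]. SIP2, an alpha-galactosidase that breaks down raffinose, rose in both, with 42.6, 33.6, 43.7 and 63.2 CPM in q-lsu-KO [dS] shoots against 21.8, 28.3, 26 and 32.2 CPM in WT [dS] shoots (0.74 ± 0.20, adjusted p = 0.0264). Under [nS] it had 34.6, 43.3, 68.4 and 55.1 CPM in q-lsu-KO shoots against 21.3, 25.3, 23 and 32.6 CPM in WT shoots (0.99 ± 0.22, adjusted p = 0.00542). The galactinol-dependent raffinose synthase gene RS5 was at -0.49 and -0.54 and not called.

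In the BT family, BT5 rose under [dS] (2.73 ± 0.67, adjusted p = 0.0325) with 98.7, 179, 201 and 137 CPM in q-lsu-KO shoots against 5.98, 8.56, 23.4 and 52.5 CPM in WT shoots. BT4 rose under [nS] (1.04 ± 0.26, adjusted p = 0.0116). BT1 and BT3 were not called in shoots. In the KMD family, KMD2 rose under [dS] (1.34 ± 0.34, adjusted p = 0.0145) and KMD3 under [nS] (1.91 ± 0.42, adjusted p = 0.0161), with 56.6, 70.8, 67.6 and 82.6 CPM in q-lsu-KO [nS] shoots against 6.45, 10.4, 18.5 and 38.1 CPM in WT [nS] shoots. KMD1 had all q-lsu-KO libraries (260 to 376 CPM under [dS], 282 to 443 CPM under [nS]) above all WT libraries (35.9 to 188 CPM, 45.1 to 236 CPM) without a call (1.76 ± 0.50, adjusted p = 0.0606, and 1.70 ± 0.51, adjusted p = 0.0697).

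Relatives of ASN1, GDH2 and SEN1 were not called. ASN2 had 103, 120, 125 and 115 CPM in q-lsu-KO [dS] shoots against 97.9, 111, 113 and 108 CPM in WT [dS] shoots, and 163, 145, 150 and 143 CPM in q-lsu-KO [nS] shoots against 172, 174, 177 and 158 CPM in WT [nS] shoots. Its log2 fold changes were 0.11 and -0.17, and those of ASN3 -0.01 and -0.44, with no call. GDH1, the partner subunit of GDH2, had fold changes close to those of GDH2 itself, at 0.67 ± 0.20 (adjusted p = 0.0514) under [dS] and 0.55 ± 0.23 (adjusted p = 0.168) under [nS]. STR16, a sulfurtransferase like SEN1, was at -0.04 and -0.17, and STR18 was not called either. GDH3, STS and AT2G17850 were among the relatives that did not pass the count filter in shoots.

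Counts for the relatives also rested on single libraries, with 0 to 6 called under [dS] and 1 to 6 under [nS] when 1 was left out. The count was 0 without q-lsu-KO [dS] library 3 or 4, and 1 without q-lsu-KO [nS] library 4. DESeq2 called 5 in each supply, and 11 stood at an unadjusted p under 0.05 in each. SIP2 kept its call in all 8 such fits under [nS] and 3 of 8 under [dS]. The genotype fold change differed between tissues for KMD2 under [dS] (1.35, adjusted p = 0.0429) and BT4 under [nS] (1.11, adjusted p = 0.0248).

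Of 13 genes of nitrogen assimilation and asparagine breakdown, such as glutamine synthetases, glutamate synthases, asparaginases and nitrate reductases, 0 were called in shoots in either supply (2 under [dS] and 4 under [nS] at an unadjusted p under 0.05, 0 and 0 by DESeq2). Their log2 fold changes ran from -0.95 to 0.62 under [dS] and from -0.53 to 0.56 under [nS], around medians of -0.02 and 0.04.

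Over all genes outside the 7, those whose log2 CPM followed the score of the 7 most closely over the 16 shoot libraries were taken from 13511 genes whose log2 CPM averaged 3 or more. The 8 closest were AT2G46220 (r = 0.983), AT3G15450 (0.976), AT3G15630 (0.973), MO1 (AT4G15760, 0.973), TPS8 (AT1G70290, 0.972), AGP16 (AT2G46330, 0.971), AT5G59080 (0.971) and AT3G15770 (0.969), and 87 genes had r over 0.9. After removal of group means, r for these 8 was between 0.846 and 0.947. The r by which they were chosen holds the same differences within groups, so this is no separate check. TPS8, of the trehalose-phosphate synthase family, averaged 92 ± 18.8 CPM in q-lsu-KO [dS] shoots and 32.7 ± 5.18 CPM in WT [dS] shoots, and 122 ± 40.8 CPM in q-lsu-KO [nS] shoots and 34.2 ± 10.9 CPM in WT [nS] shoots (SD, n = 4 each). AT3G15630 averaged 48.2 ± 22.1 CPM in q-lsu-KO [dS] shoots and 8.5 ± 3.74 CPM in WT [dS] shoots. These correlations are a description over libraries that share pools and depth, and the genes were chosen by them.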

How the data were processed

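3′RNA-seq libraries were made by the authors from shoot and root RNA (500 ng each), and the deposited values are whole-number read counts per gene, 1 table a library, with no normalization. Per the labels the genome build was TAIR10 and the tools STAR 2.7.8a and DESeq2. No source used here gives the counting program, the annotation release or whether reads were collapsed by molecular tag.

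From the counts, edgeR 4.0.16 (R 4.3.3, limma 3.58.1) was run with its quasi-likelihood F-test (robust, TMM factors, genes kept by filterByExpr with a minimum count of 10) on the 16 libraries of each tissue, and on all 32 for differences between tissues. P-values were Benjamini-Hochberg adjusted over all tested genes, and genes were called at a fold change over 1.5 with an adjusted p under 0.05. The SE is the fold change over the square root of F, which is unreliable for fold changes very near 0. Log2 CPM for scores used a prior count of 2.

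Members and lists were chosen with earlier results of these data known. Genes named beside the 7 are list genes called in shoots between genotypes, close relatives, and the 8 best correlated genes. Alternatives were DESeq2 1.42.0, RLE (relative log expression) factors, no filter, a mean CPM of at least 5, adjusted p alone, replicate number as a block, only the 8 libraries compared, and each library left out. Compared within groups only, no 2 libraries were copies of each other (chi-square per gene 1.21 to 3.26). The edgeR step was tested on simulated counts. Windows and positions were read from RefSeq TAIR10.1, which matched 37051 of 37336 identifiers. At 893225 to 2857129 counts a library, 1 count is near 1 CPM or below, so levels under a few CPM carry large counting error.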

Additional observations from a re-analysis of the deposited data

Results flagged for a closer look

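For each of the 7 genes, the 8 groups of 4 libraries were examined for a library apart from the rest, 56 groups in all, and 3 passed Dixon's critical value for 4 samples, which chance alone gives in about 1 of 20 groups. DIN10 stood at 36 CPM in WT [nS] shoot library 4, where the next library had 13.4 CPM. GDH2 stood at 65.4 CPM in q-lsu-KO [dS] shoot library 4, where the next had 41.9 CPM. BT2 stood at 7.4 CPM in WT [dS] root library 4, where the next had 11.8 CPM.

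By edgeR's test of the difference itself, shoots and roots differed in the genotype fold change for 8 gene and supply pairs, all larger in shoots. These 8 are from the carbon starvation list, the SnRK1 and bZIP list and the close relatives. Under [dS] the log2 differences were 2.21 for BGAL4, 0.97 for BZIP53 and 1.35 for KMD2. Under [nS] they were 2.74 for AT3G15450, 2.16 for DRM2, 1.04 for BZIP53, 0.73 for BZIP25 and 1.11 for BT4. In the touch list, 4 of 13 tested genes were also called larger in shoots under [dS] and 3 of 13 under [nS]. Of the 4 LSU genes, 0 were called so under [dS] and 3 under [nS]. Tissue and sequencing pool cannot be told apart, though each pool held both genotypes.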

How the results depend on the processing

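No fold change of the 7 genes or of a named list gene changed its sign where it had been called, and counts for the 23 carbon starvation genes moved as follows. Between genotypes in shoots, leaving out 1 library gave 1 to 4 calls under [dS] and 4 to 8 under [nS]. Without both WT libraries 1 the counts were 1 under [dS] and 4 under [nS], and without WT [nS] library 4 and both q-lsu-KO libraries 1 the count under [dS] was 5. With only the 8 libraries compared it was 1 under [dS]. In roots, the counts of 0 became 1 under [dS] with adjusted p alone and with only the 8 libraries compared, and 1 under [nS] with DESeq2, no filter or adjusted p alone, and 0 to 1 without single [nS] libraries. For [dS] against [nS], leaving out 1 library gave 1 to 2 calls in WT shoots and 2 to 5 in q-lsu-KO shoots, and adjusted p alone gave 5 in WT roots. For the difference between tissues, DESeq2 called 2 under [dS] and 4 under [nS], and no filter gave 1 under [nS]. RLE factors and a mean CPM of at least 5 moved none of these counts by over 1.5 times.

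Over all genes, replicate numbers did not meet the criterion of pairing, a correlation over 0.1 in every pair of same-numbered libraries: 5 of 24 pairs in shoots (median 0.023), all numbered 1 or 4, and 0 of 24 in roots passed, and 8 and 9 were best with their own number. The 7 genes themselves were highest in shoot library 4 in 4 of 4 groups. With the replicate block, the list's count was 5 between genotypes in [dS] shoots, 1 in [dS] roots, 1 for the difference between supplies in shoots, and 3 under [dS] and 5 under [nS] for the difference between tissues. The same block took the count of the 7 genes in shoots to 6 under [dS] and 7 under [nS] between genotypes, that between supplies to 3 lower under [dS] in each genotype, and that for the difference between tissues under [dS] to 3. The shares of all genes given with the results come from the fit without the block. As the 7 were chosen on these libraries, nothing is read from their counts with the block.

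From library totals in place of TMM factors, 28 of 56 group means of the 7 genes moved by more than 1 SD. Depth limits BT2 in WT [dS] shoots (1 to 6 counts a library) and SEN1 in roots. Low counts also lie under SEN1 in WT [dS] shoots (6 to 16), BT2 in WT [nS] shoots (2 to 27), KMD4 in roots (5 to 25) and GPT2 in q-lsu-KO [nS] shoots (2 to 9).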

Other observations

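In shoots, the score of the 7 genes was highest in library 4 in 4 of 4 groups and lowest in library 1 in 3 of 4, and that of the 23 carbon starvation genes was highest in library 4 and lowest in library 1 in 4 of 4. In roots the 7 genes were highest in library 4 in 0 of 4 groups. The touch list in shoots was highest in library 4 in 2 of 4 groups and lowest in library 1 in 3 of 4. What the numbers mark is not given in the sources used here.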
